A study of Homo sapiens with 5 samples.

Results

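The genes described here are the nuclear genes of respiratory complexes II to V, with cytochrome c and the named assembly factors. They were chosen by symbol: every gene of the deposited table whose symbol marks it as a subunit or assembly factor of succinate dehydrogenase (SDH), cytochrome bc1 (UQCR, UQCC, CYC1), cytochrome c (CYCS), cytochrome c oxidase (COX, SURF1, SCO) or ATP synthase (ATP5, ATPAF). The rule used no measured value, but it was chosen with earlier results of these data known. It found 60 of the 14042 symbols in the table: 8 of complex II, 11 of complex III, cytochrome c, 21 of complex IV and 19 of complex V. Of these, 37 are structural subunits or paralogue copies of them, 19 are assembly factors, 1 is the electron carrier cytochrome c and 3 carry an ATP synthase name without being core subunits. Subunits without a row in the deposited table, UQCRQ and COX4I1 among them, are not covered by any count or sum below.

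Ribosome footprints, the mRNA fragments that a translating ribosome shields from nuclease, were counted in HAP1, an established near-haploid human cell line. The groups were METTL18 knockout HAP1 cells (n = 3 libraries) and wild-type HAP1 cells (n = 2 libraries), with no other treatment in the labels. METTL18 adds a methyl group to a histidine in the ribosomal protein RPL3, and the study asked what its loss does to ribosomes. The labels do not say whether the libraries came from separate cultures or how many knockout clones were used, so p-values measure no more than library-to-library spread, possibly technical. Footprint counts depend on the amount of an mRNA and on the ribosomes each copy carries. No matched RNA sequencing was used here, so these 2 parts cannot be told apart, nor can fewer cells expressing a gene and less of it per cell.

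The respiratory chain sits in the inner mitochondrial membrane. Complex II oxidises succinate and feeds electrons to ubiquinone, complex III passes them on to cytochrome c, complex IV hands them to oxygen, and complex V (ATP synthase) uses the resulting proton gradient to make ATP. Complex II is wholly encoded in the nucleus, whereas complexes III, IV and V join nuclear subunits, imported after synthesis on cytosolic ribosomes, to subunits made inside the organelle. The mitochondrially encoded subunits are not analysed here.

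Library totals were 16339574, 17629199 and 16921863 counts in the knockout and 5302160 and 4887380 counts in the wild type, so mean depth was 3.33-fold higher in the knockout and runs with the groups. Levels are CPM, counts scaled to a common library size with TMM composition factors. Fold changes are knockout over wild type on the log2 scale with a standard error (SE). Each adjusted p is that of an edgeR quasi-likelihood test, Benjamini-Hochberg adjusted over 11335 genes and called below 0.05. The SE was worked back from that test, as the absolute log2 fold change divided by the square root of the F statistic. The METTL18 row held 33, 32 and 34 counts in the knockout, against 33 and 32 in the shallower wild-type libraries, which is 2.10 ± 0.117 CPM (SD, n = 3) and 5.71 ± 0.211 CPM (SD, n = 2) at an adjusted p of 2e-06. Footprints on METTL18 were thus lower but present in the knockout, and the site of the mutation was not stated in the labels. HAP1 has no set of defining expression markers. The haematopoietic markers ITGAM and CD34 had at most 4 counts in any library. Of 6 fibroblast markers, 4 had a row and COL1A1 alone was tested, at 22.7 ± 1.67 CPM in the knockout and 16.7 ± 1.23 CPM in the wild type, a call of higher in the knockout that was lost with total-count scaling.

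The chain genes moved both ways within every complex, with more rises than falls. Of the 60 genes, 56 were tested, of which 33 rose, 12 fell and 11 did not pass. Over all genes tested, 37.8% rose and 36.6% fell (74.4% called), so the 33 of 56 that rose (58.9%) stood above the table's share and the 12 that fell stood below it. The median log2 fold change was 0.46 over the tested chain genes, against 0.02 over all genes tested, and values ran from -0.90 for SURF1 to 1.77 for UQCRH. Rises of at least 2-fold were found for 8 chain genes and falls of that size for 0, while 12.8% of all genes rose and 14.7% fell that far. Of the 8, ATP5J2 and ATP5L sat on the limit and were at 0.99 each with RLE scaling and 0.73 each with total-count scaling. In 47 of the 56 the knockout and wild-type CPM did not overlap, a state that 83.5% of all genes tested shared.

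Structural subunits and assembly factors differed in these counts. Of 34 subunits tested, 24 rose, 6 fell and 4 did not pass, with a median of 0.65. Of 19 assembly factors, 7 rose, 6 fell and 6 did not pass, with a median of 0.06, close to that of all genes. By complex, 4 of 8 genes rose and 3 fell in complex II (median 0.31), 5 of 10 rose and 4 fell in complex III (0.29), 10 of 20 rose and 3 fell in complex IV (0.29), and 13 of 17 rose and 2 fell in complex V (0.70). Here and in the sums below, complex V is taken by symbol and includes ATP5S and ATP5SL, which are not core subunits. Of its 14 tested subunits, 12 rose. Falls in complexes II and III lay near the share of all genes tested that fell (36.6%). Rises among assembly factors (36.8%) lay near the share that rose (37.8%). The 4 genes that could not be tested are paralogue copies or a read-through with almost no counts: UQCRHL (1, 4 and 3 counts in the knockout, 0 and 0 in the wild type), COX7B2 (1, 0 and 0 against 0 and 0), ATP5L2 (2, 2 and 1 against 0 and 1) and ATP5J2-PTCD1 (0, 0 and 1 against 0 and 2).

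These directions are relative to the bulk of genes. With scaling by library totals alone, the median of all genes tested moved to -0.26 and that of the chain genes to 0.19, with 28 chain genes higher and 19 lower in the knockout (all genes: 2982 higher and 5597 lower, against 4288 and 4143 with TMM). A change of scaling shifts the log2 fold change of every gene by a like amount. The gap between chain genes and all genes therefore had to stay much alike, and its likeness on both scales is no separate evidence. The sign turned for 2 genes called higher with TMM, ATP5B and ATP5E. It also turned for 9 that did not pass, ATP5H, ATP5S, COX15, COX16, COX18, COX20, COX5B, COX6A1 and SDHAF1.

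**Figure D1:**
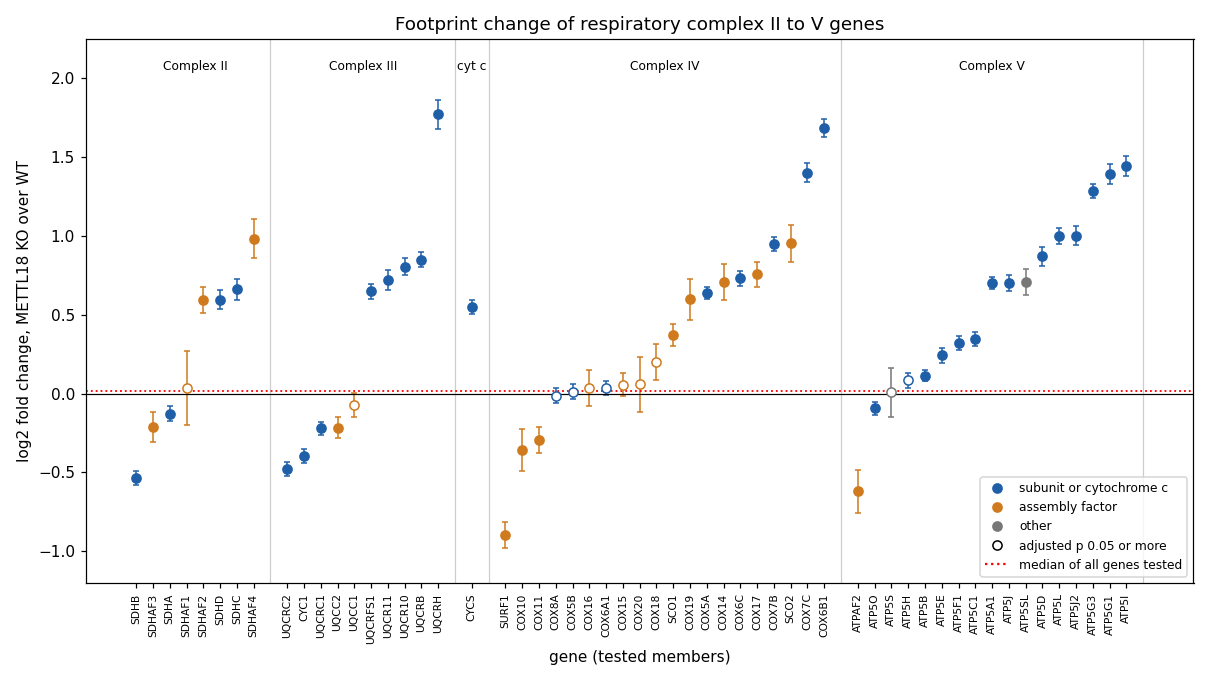
Log2 fold change (METTL18 knockout over wild type, vertical axis, bars are ± 1 SE) of the 56 tested genes, ordered by value within each complex, with filled points for adjusted p under 0.05 and the median of all genes (0.02) as a dotted line. Complex V genes lie mostly above the line, while SURF1 at -0.90 and UQCRH at 1.77 mark the ends; with total-count scaling ATP5B, ATP5E and 9 of the open points turn to below 0.

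Before the values, the promoters of some of the genes that moved are shown, since nuclear respiratory genes are known for binding sites of NRF1 (letters GCGC, any base, then TGCGC) and of ETS factors such as GABP (letters CCGGAAG). The lines give the 180 bases before the RefSeq start of transcription (GRCh38.p14, strand of the gene), with exact matches to either motif, on either strand, in capitals. COX6B1 and UQCRH, the largest rises, and UQCR11, a smaller rise, come first, then SDHB and SDHA, the falling catalytic pair of complex II. The lines are examples, each with a match, and do not stand for all genes that moved. Among other large rises, ATP5I has matches to both motifs, whereas COX7C and ATP5G1 have none.

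COX6B1 (rose), chr19:35648143-35648322, plus strand: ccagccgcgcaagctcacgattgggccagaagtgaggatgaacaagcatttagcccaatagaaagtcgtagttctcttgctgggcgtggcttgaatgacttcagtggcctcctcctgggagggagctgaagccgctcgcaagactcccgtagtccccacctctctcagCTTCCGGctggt
UQCRH (rose), chr1:46303518-46303697, plus strand: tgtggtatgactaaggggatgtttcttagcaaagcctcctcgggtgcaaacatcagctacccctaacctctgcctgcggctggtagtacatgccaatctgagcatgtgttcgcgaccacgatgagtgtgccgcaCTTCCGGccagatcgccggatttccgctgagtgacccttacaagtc
UQCR11 (rose), chr19:1605463-1605642, minus strand: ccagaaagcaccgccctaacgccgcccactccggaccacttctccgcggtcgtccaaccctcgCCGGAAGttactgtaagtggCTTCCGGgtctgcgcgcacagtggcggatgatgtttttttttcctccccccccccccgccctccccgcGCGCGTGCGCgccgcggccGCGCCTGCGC
SDHB (fell), chr1:17054033-17054212, minus strand: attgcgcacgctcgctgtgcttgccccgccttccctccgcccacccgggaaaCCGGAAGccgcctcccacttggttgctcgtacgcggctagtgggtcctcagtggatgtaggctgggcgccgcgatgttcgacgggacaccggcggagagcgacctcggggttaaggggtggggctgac
SDHA (fell), chr5:218140-218319, plus strand: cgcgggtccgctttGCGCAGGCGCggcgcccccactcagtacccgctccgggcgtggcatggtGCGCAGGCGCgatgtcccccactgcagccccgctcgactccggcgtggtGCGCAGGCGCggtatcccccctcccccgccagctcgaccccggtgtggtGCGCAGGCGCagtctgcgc

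UQCR11 carries both motifs, and SDHA carries 4 NRF1 matches that lie 49 bases apart from one to the next. Over a window of 250 bases before to 50 after the start, the NRF1 letters were in 15 of the 46 chain promoters found in RefSeq (32.6%), against 12.1% of the promoters of 9321 genes tested, and the ETS letters were in 19 (41.3%), against 19.7%. The TATA box letters TATAAA were in 4 (8.7%), against 5.24%. The NRF1 letters were in 8 of 25 chain promoters of genes that rose and 5 of 10 of genes that fell. The ETS letters were in 10 of 25 and 4 of 10 of the same promoters, so both motifs stood on both sides of the change. Across all genes tested with a promoter, 41.1% rose with the NRF1 letters and 38.1% without them, and 42.6% rose with the ETS letters and 37.5% without.

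A further motif was counted with the fold changes already known, and its letters were read from SDHB, itself one of the genes that fell, so its counts are a description. The letters AAGATGGCGGC, a form of the YY1 motif over the start codon of SDHB, were in 5 of 10 promoters of chain genes that fell (ATPAF2, COX10, SDHB, UQCC2 and UQCRC1), in 0 of 25 of those that rose and in 0 of 10 that did not pass. Among the 202 tested genes of the whole table with these letters in the promoter, 36.1% rose and 37.1% fell, close to the 38.5% and 35.8% of the 9119 without them. No 2 matches to different motifs overlapped in the chain promoters. In 5 chain genes the same letters lay over the start codon of the counted transcript (GENCODE 29): SDHB, UQCRC1, UQCC2 and CYC1 fell, and ATP5SL rose. In SDHB, UQCRC1 and UQCC2 this is the site already counted in the promoter window. ATP5SL counts among the promoters without the letters because its RefSeq window belongs to another start of transcription, so the 0 among the genes that rose depends on the start used. Among all genes tested, 139 carried them there, of which 34.5% rose and 35.3% fell. The lines show the start codon contexts other than that of CYC1, with the motif in capitals and the start codon ATG within it. The position is that of the first base of the start codon on hg38, all on the minus strand.

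SDHB, chromosome 1, 17054019: tcaggagccAAGATGGCGGCggtggtcgcc
UQCRC1, chromosome 3, 48609620: tgcagctggAAGATGGCGGCgtccgtggtc
UQCC2, chromosome 6, 33711686: gcggggcccAAGATGGCGGCcagccggtac
ATP5SL, chromosome 19, 41439899: agcAAGATGGCGGCtccctgggcg

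Complex II split between its catalytic and its membrane subunits. SDHA, the flavoprotein that oxidises succinate, had 206, 203 and 205 CPM in the knockout, against 225 and 223 CPM in the wild type. SDHB, the iron-sulphur subunit that carries electrons onward, had 258, 259 and 247 CPM in the knockout, against 373 and 366 CPM in the wild type. All 3 knockout libraries were below both wild-type libraries for each, and the log2 fold change was -0.13 (SE 0.0479, adjusted p = 0.015) for SDHA and -0.54 (SE 0.0446, adjusted p = 3.89e-14) for SDHB. The call of SDHA was lost without either wild-type library (-0.13 without replicate 1 and -0.14 without replicate 2) and without a low-count filter (-0.10, adjusted p = 0.0553).

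The membrane anchors, which hold the enzyme in the membrane and bind ubiquinone and haem, went the other way. SDHC had 235, 257 and 288 CPM in the knockout, against 168 and 161 CPM in the wild type. SDHD had 162, 179 and 175 CPM in the knockout, against 113 and 115 CPM in the wild type. The groups did not overlap, and the log2 fold change was 0.66 (SE 0.0683, adjusted p = 1.45e-08) for SDHC and 0.60 (SE 0.0573, adjusted p = 2.55e-12) for SDHD. Pseudogene copies differ among these genes. Of the 28-base stretches of the coding sequence, 66.7% in SDHC and 83.3% in SDHD also occur in an annotated pseudogene transcript, against 48.1% in SDHA and 0.492% in SDHB. The counting of reads with several matches is not described in the labels, and the part of such reads in the split was not tested.

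The assembly factors of complex II split as well. SDHAF2, which helps to attach flavin to SDHA, had 55.5, 55.4 and 60.7 CPM in the knockout, against 37.0 and 39.0 CPM in the wild type (log2 fold change 0.59, SE 0.0824, adjusted p = 3.06e-08). SDHAF4, which acts on flavinated SDHA, had 24.6, 23.3 and 24.4 CPM in the knockout, against 12.3 and 12.1 CPM in the wild type (0.98, SE 0.124, adjusted p = 2.89e-09). Both factors that act on SDHA therefore rose while SDHA fell slightly. SDHAF3, which with SDHAF1 serves the iron-sulphur clusters of SDHB, had 28.0, 28.1 and 29 CPM in the knockout, against 33.3 and 32.4 CPM in the wild type (-0.21, SE 0.0922, adjusted p = 0.0366), a call that was lost without any one of knockout replicates 1 and 2 or of the wild-type replicates, with DESeq2, without a low-count filter and with thinned knockout libraries (adjusted p from 0.0511 to 0.269). SDHAF1 had 4.56, 4.18 and 6.09 CPM in the knockout, against 5.05 and 4.57 CPM in the wild type (adjusted p = 0.899), overlapping groups at a low level.

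In complex III the large and the small nuclear subunits moved apart. UQCRC1 and UQCRC2, the core proteins that face the matrix, both fell. UQCRC1 had 363, 366 and 371 CPM in the knockout, against 431 and 424 CPM in the wild type (log2 fold change -0.22, SE 0.0424, adjusted p = 1.32e-05). UQCRC2 had 306, 327 and 334 CPM in the knockout, against 451 and 447 CPM in the wild type (-0.48, SE 0.0444, adjusted p = 9.97e-13). CYC1, the cytochrome c1 that passes electrons to cytochrome c, fell with them, at 265, 244 and 258 CPM in the knockout, against 345 and 327 CPM in the wild type (-0.40, SE 0.0469, adjusted p = 6.76e-10). UQCRFS1, the Rieske iron-sulphur protein and the other nuclear redox subunit, rose instead. It had 315, 337 and 324 CPM in the knockout, against 207 and 208 CPM in the wild type (0.65, SE 0.0483, adjusted p = 1.34e-15). Of its 28-base stretches 75.7% occur in a pseudogene transcript as well, against 0 for UQCRC1 and CYC1 and 1.73% for UQCRC2.

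All 4 supernumerary subunits of complex III that had a row, small proteins without redox centres that surround the core, rose. UQCRH, the acidic hinge protein that helps cytochrome c to dock, had the largest change of all chain genes, with 69.3, 76.2 and 76.2 CPM in the knockout, against 21.9 and 21.4 CPM in the wild type (log2 fold change 1.77, SE 0.0909, adjusted p = 6.19e-21). Every knockout library was more than 3-fold above the wild-type libraries. UQCRB had 491, 520 and 477 CPM in the knockout, against 277 and 274 CPM in the wild type (0.85, SE 0.0464). UQCR10 had 199, 201 and 184 CPM in the knockout, against 113 and 109 CPM in the wild type (0.81, SE 0.0571). UQCR11 had 118, 123 and 121 CPM in the knockout, against 76.6 and 69.5 CPM in the wild type (0.72, SE 0.0634). UQCR10 shares none of its 28-base coding stretches with another annotated transcript.

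UQCRH has a near-identical copy, UQCRHL, and 72.8% of the 28-base stretches of UQCRH are found in it. UQCRHL nevertheless took few of their joint counts: 0.0951%, 0.321% and 0.249% in the knockout libraries and 0 in both wild-type libraries, where the exact 95% binomial interval reached 2.80% and 3.10%. All 3 knockout shares lay above the wild-type shares and inside the wild-type intervals (exact permutation test, two-sided p = 0.2, the smallest that 3 against 2 libraries allow, so no difference could have passed). The assembly factors UQCC1 and UQCC2 serve the making of cytochrome b inside the organelle. UQCC2 had 76.8, 71.3 and 67.4 CPM in the knockout, against 83.7 and 83.2 CPM in the wild type (log2 fold change -0.22, adjusted p = 0.00394), and UQCC1 averaged 54.4 ± 2.83 CPM in the knockout and 57.3 ± 0.258 CPM in the wild type (adjusted p = 0.375), called lower with total-count scaling (-0.35).

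Cytochrome c, the carrier between complexes III and IV and a trigger of apoptosis when released, rose. CYCS had 709, 765 and 697 CPM in the knockout, against 494 and 496 CPM in the wild type, groups that did not overlap (log2 fold change 0.55, SE 0.0432, adjusted p = 7.82e-15). CYCS is also the chain gene with the most pseudogenes: 73.6% of its 28-base stretches occur in transcripts of 25 annotated pseudogenes.

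**Figure D2:**
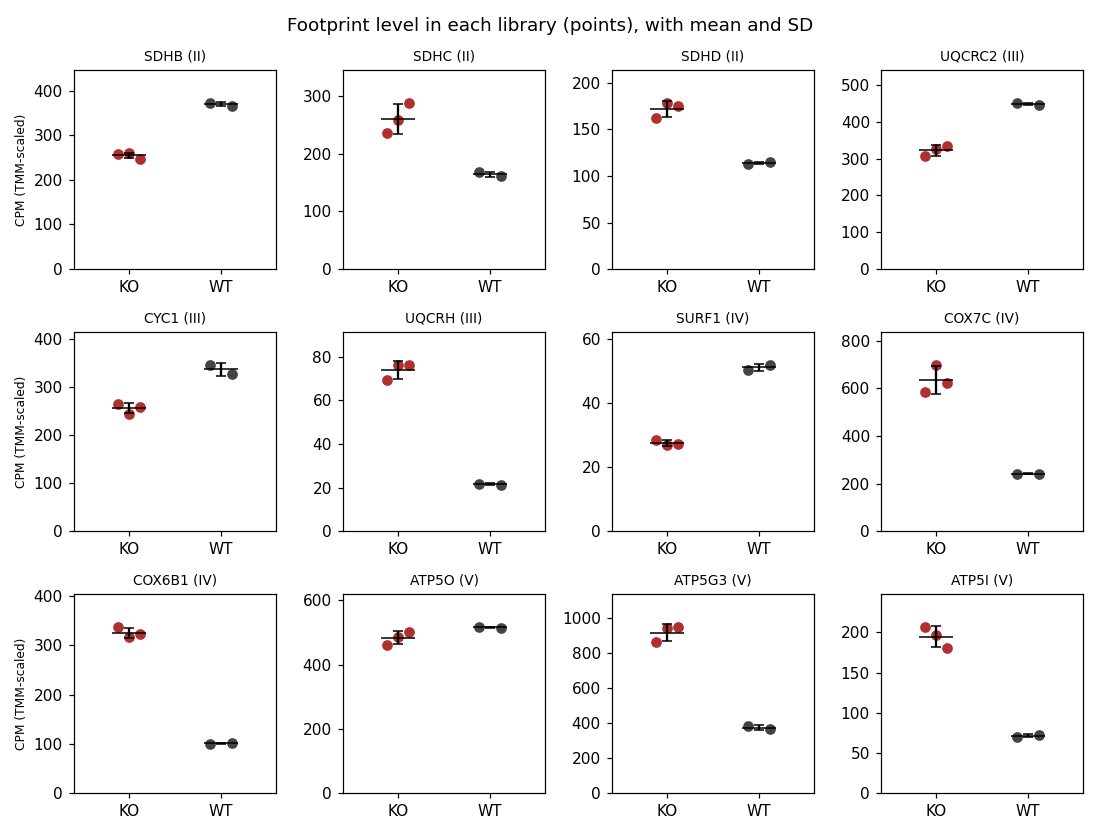
CPM (vertical axis from 0, points are libraries, bars are mean ± SD) of 12 chain genes in METTL18 knockout (n = 3) and wild type (n = 2). SDHB, UQCRC2, CYC1 and SURF1 are lower in every knockout library, SDHC, SDHD, UQCRH, COX7C, COX6B1, ATP5G3 and ATP5I are higher in every one, and ATP5O differs little (484 against 516 CPM).

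In complex IV, 5 of the 8 tested nuclear subunits rose and the other 3 did not pass, with 0 falls. COX6B1, which joins the monomers of the complex IV dimer on the intermembrane side, had 337, 317 and 324 CPM in the knockout, against 101 and 102 CPM in the wild type. COX7C had 584, 697 and 622 CPM in the knockout, against 239 and 242 CPM in the wild type. Every knockout library lay above both wild-type libraries by more than 2-fold, and the log2 fold change was 1.68 (SE 0.0544, adjusted p = 5.36e-28) for COX6B1 and 1.40 (SE 0.06, adjusted p = 6.38e-16) for COX7C. COX6B1 shares 1.3% of its 28-base stretches with a pseudogene, and COX7C shares 68.5%.

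COX7B had 572, 554 and 558 CPM in the knockout, against 295 and 287 CPM in the wild type (log2 fold change 0.95, SE 0.044, adjusted p = 2.09e-22). COX6C had 390, 433 and 419 CPM in the knockout, against 248 and 251 CPM in the wild type (0.73, SE 0.0485, adjusted p = 3.34e-17). COX5A, which binds the core on the matrix side, had 1235, 1265 and 1211 CPM in the knockout, against 797 and 791 CPM in the wild type (0.64, SE 0.0382, adjusted p = 1.12e-18). None of these groups overlapped. COX5B, which carries a zinc site, averaged 253 ± 3.09 CPM in the knockout and 251 ± 5.85 CPM in the wild type (0.01, SE 0.0467, adjusted p = 0.832). COX6A1, the form of subunit 6A made outside heart and muscle, averaged 347 ± 11.9 and 339 ± 7.83 CPM in the knockout and the wild type (0.03, SE 0.0452, adjusted p = 0.494). COX8A averaged 229 ± 2.56 and 231 ± 1.03 CPM in the knockout and the wild type (-0.01, SE 0.0474, adjusted p = 0.811). With total-count scaling COX5B (-0.26), COX6A1 (-0.24) and COX8A (-0.28) were all called lower in the knockout, so these 3 subunits moved with the bulk of genes while the other 5 lay above it.

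The copper and haem factors that build the catalytic centre of complex IV did not share a direction. Of 5 proteins that deliver copper, 4 rose and 1 fell. COX17, the small copper chaperone of the intermembrane space, had 71.1, 69.6 and 65.0 CPM in the knockout, against 40.8 and 40.4 CPM in the wild type (log2 fold change 0.76, SE 0.0781, adjusted p = 1.93e-11). SCO2 had 28.6, 26.2 and 30.3 CPM in the knockout, against 14 and 15.4 CPM in the wild type (0.95, SE 0.119, adjusted p = 2.22e-09). Its partner SCO1, which also metallates the copper site of subunit 2, had 72.0, 71.2 and 73.3 CPM in the knockout, against 53.0 and 58.7 CPM in the wild type (0.37, SE 0.0712, adjusted p = 1.25e-05), a call lost with total-count scaling (0.10). SCO2 made up 28.4%, 26.9% and 29.3% of the joint counts of SCO1 and SCO2 in the knockout, against 20.8% and 20.7% in the wild type, 7.40 percentage points more (exact permutation test, two-sided p = 0.2, the smallest possible). That pair was chosen after its values were seen. COX19, another small protein of the intermembrane space, rose (0.60, SE 0.132, adjusted p = 0.000102), and COX11, which serves the copper site of subunit 1, had 36.7, 39.3 and 40.0 CPM in the knockout, against 47.3 and 47.6 CPM in the wild type (-0.29, SE 0.0813, adjusted p = 0.00137).

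SURF1, an assembly factor whose loss in patients causes Leigh syndrome, fell most of all chain genes. It had 28.5, 26.8 and 27.1 CPM in the knockout, against 50.4 and 51.8 CPM in the wild type, groups far apart (log2 fold change -0.90, SE 0.0833, adjusted p = 1.05e-12). COX10, which makes haem O from haem B, had 12.4, 11.9 and 13.8 CPM in the knockout, against 16.0 and 16.5 CPM in the wild type (-0.36, SE 0.131, adjusted p = 0.0137), and its call was lost without either wild-type library, with DESeq2 (adjusted p = 0.0873) and with thinned knockout libraries (-0.31, adjusted p = 0.0578). COX15, which turns haem O into haem A, averaged 70.4 ± 4.55 CPM in the knockout and 67.6 ± 4.22 CPM in the wild type (adjusted p = 0.476), but was called lower with total-count scaling (-0.21). COX14, an early factor in the making of subunit 1, had 28.1, 32.1 and 27.2 CPM in the knockout, against 17.0 and 18.8 CPM in the wild type (0.70, SE 0.114, adjusted p = 6.57e-07). COX16, COX18 and COX20, which act on subunit 2 or its copper site, did not pass, at log2 fold changes of 0.03, 0.20 and 0.06 and mean levels of 23.1, 20.9 and 8.87 CPM in the knockout, against 22.6, 18.2 and 8.55 CPM in the wild type.

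Complex V had the most even direction: 12 of its 14 tested subunits rose. The catalytic head is a ring of alpha and beta subunits. ATP5A1 (now ATP5F1A, alpha) had 2263, 2435 and 2362 CPM in the knockout, against 1446 and 1449 CPM in the wild type (log2 fold change 0.70, SE 0.0369, adjusted p = 1.52e-20). ATP5B (ATP5F1B, beta) had 2051, 2108 and 2121 CPM in the knockout, against 1963 and 1909 CPM in the wild type. The groups of ATP5B did not overlap but lay close (0.11, SE 0.035, adjusted p = 0.00403), its call was lost without wild-type replicate 2 (0.09) and with a filter at a mean CPM of at least 10 (0.05, adjusted p = 0.153), and with total-count scaling it was called lower (-0.16).

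All 3 nuclear subunits of the central stalk, which turns inside the head, rose. ATP5C1 (gamma) had 429, 451 and 437 CPM in the knockout, against 343 and 348 CPM in the wild type (log2 fold change 0.34, SE 0.0438). ATP5D (delta) had 194, 175 and 198 CPM in the knockout, against 106 and 101 CPM in the wild type (0.87, SE 0.0601). ATP5E (epsilon) had 300, 303 and 288 CPM in the knockout, against 250 and 253 CPM in the wild type (0.24, SE 0.0467), and its value was -0.03 with total-count scaling. Adjusted p-values were 3.61e-09, 1.19e-16 and 1.38e-05 for ATP5C1, ATP5D and ATP5E. The call of ATP5C1 was lost with total-count scaling (0.07), whereas that of ATP5D was not.

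The largest rises among the complex V genes chosen by symbol were those of 5 membrane subunits, ATP5G1 and ATP5G3 of the c-ring and the small subunits ATP5I, ATP5J2 and ATP5L, at log2 fold changes of 1.00 to 1.44. The proton-carrying c-ring is built of identical c subunits that come from several genes, of which ATP5G1 and ATP5G3 were measured. ATP5G1 had 194, 207 and 223 CPM in the knockout, against 82.2 and 75.7 CPM in the wild type (log2 fold change 1.40, SE 0.0642, adjusted p = 1.47e-22). ATP5G3 had 861, 939 and 946 CPM in the knockout, against 384 and 366 CPM in the wild type (1.29, SE 0.0452, adjusted p = 1.09e-26). Both rose by more than 2-fold, and ATP5G1 held 18.4%, 18.1% and 19.1% of their joint counts in the knockout, against 17.6% and 17.2% in the wild type (difference 1.11 percentage points, exact permutation test, two-sided p = 0.2, the smallest possible).

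The small Fo subunits e, f and g, which shape the membrane and join ATP synthase dimers, rose together. ATP5I (e) had 206, 196 and 181 CPM in the knockout, against 70.2 and 73.0 CPM in the wild type (log2 fold change 1.44, SE 0.0644, adjusted p = 5.09e-23). ATP5J2 (f) had 210, 188 and 190 CPM in the knockout, against 101 and 94.4 CPM in the wild type (1.00, SE 0.0604, adjusted p = 1.51e-18). ATP5L (g) had 386, 424 and 431 CPM in the knockout, against 208 and 205 CPM in the wild type (1.00, SE 0.0506, adjusted p = 3.75e-21). In each the knockout libraries lay close together and far above the wild type. ATP5I shares none of its 28-base stretches with another annotated transcript. ATP5J2 and ATP5L share 64.6% and 79.4%, read-through transcripts and pseudogenes together.

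The peripheral stalk, which keeps the head from turning, was divided. ATP5J (F6) had 283, 301 and 299 CPM in the knockout, against 178 and 184 CPM in the wild type (log2 fold change 0.70, SE 0.0499, adjusted p = 2.87e-16). ATP5F1 (b) had 488, 485 and 507 CPM in the knockout, against 387 and 403 CPM in the wild type (0.32, SE 0.0431, adjusted p = 1.26e-08), a call lost with total-count scaling (0.05). ATP5H (d) had 303, 319 and 307 CPM in the knockout, against 282 and 303 CPM in the wild type, groups that overlapped (0.08, SE 0.0467, adjusted p = 0.106). It was called lower with total-count scaling (-0.19) and higher without a low-count filter (0.11, adjusted p = 0.0337). ATP5O (OSCP), which links the stalk to the head, had 462, 487 and 502 CPM in the knockout, against 517 and 516 CPM in the wild type (-0.09, SE 0.0426, adjusted p = 0.0448). The call of ATP5O was lost without knockout replicate 1 (-0.07), without either wild-type library, with DESeq2 (-0.09, adjusted p = 0.0822) and without a low-count filter (-0.07, adjusted p = 0.143).

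Around complex V, the F1 assembly factor ATPAF2, which binds alpha subunits before they join the head, had 9.91, 10.3 and 9.96 CPM in the knockout, against 14.5 and 16.5 CPM in the wild type (log2 fold change -0.62, SE 0.137, adjusted p = 9.97e-05). Its level fell while that of the alpha subunit ATP5A1 rose. ATP5SL, now DMAC2 and known as a complex I assembly factor despite its older name, rose (62.1 ± 2.40 CPM in the knockout and 38.0 ± 1.49 CPM in the wild type, 0.71, adjusted p = 2.15e-10). ATP5S, named as coupling factor B, averaged 10.6 ± 1.12 CPM in the knockout and 10.5 ± 0.376 CPM in the wild type (adjusted p = 0.972).

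Summed over its genes, each complex took a different share of all footprints. Complex V held 0.831% ± 0.0208 of counts in the knockout (SD, n = 3) and 0.712% ± 0.00377 in the wild type (SD, n = 2), and complex IV held 0.410% ± 0.0053 and 0.321% ± 0.000536 in the knockout and the wild type. Both were higher in every knockout library. Complex II held 0.0933% ± 0.00304 in the knockout and 0.107% ± 0.00105 in the wild type, and complex III 0.211% ± 0.00274 and 0.229% ± 0.00361. These raw shares of complexes II and III were lower in every knockout library, at ratios of 0.869 and 0.926, whereas their summed TMM-scaled CPM stood at ratios of 1.05 and 1.12. Complexes IV and V were higher on both scales, with ratios of 1.28 and 1.17 in raw share and 1.54 and 1.41 in CPM. All chain genes together held 1.61% ± 0.0306 of counts in the knockout and 1.42% ± 0.00784 in the wild type.

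Levels of different genes were compared per coding length, as CPM per coding kilobase. Subunits of complex IV stood highest, with a median of 1551 over 8 tested subunits in the knockout and 1113 in the wild type, followed by complex V (833 and 582 over 14), complex III (333 and 338 over 8) and complex II (332 and 281 over 4). Complex III subunits ranged from UQCRC2 at 237 to UQCRB at 1489 in the knockout, and from UQCRH at 79.3 to UQCRB at 827 in the wild type. UQCRH was thus the lowest complex III subunit in the wild type but not in the knockout, where it averaged 271 ± 14.6. Of the coding stretches of UQCRH compared above, 72.8% are also found in UQCRHL. The labels do not describe how reads matching several genes were counted. The part of such reads in the rank of UQCRH, and in the other levels per length, was not tested. In complex IV, COX6B1 was lowest in the wild type at 393 ± 3.32, but averaged 1262 ± 39.6 in the knockout, where COX5B was lowest (655 ± 8.00). In complex V, ATP5G1 was lowest in the wild type (194 ± 11.1) and ATP5D in the knockout (375 ± 23.9).

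Pairs of subunits present in equal number in the assembled enzyme had unequal footprint levels, and their ratios differed between the groups. ATP5A1 over ATP5B was 1.06, 1.11 and 1.07 in the knockout libraries, against 0.705 and 0.726 in the wild type. SDHC over SDHB was 1.51, 1.65 and 1.93 in the knockout, against 0.745 and 0.729 in the wild type, and SDHD over SDHB was 1.11, 1.21 and 1.24, against 0.533 and 0.550. UQCRC1 over UQCRC2 averaged 1.07 ± 0.0371 in the knockout and 0.898 ± 0.00405 in the wild type. In these 4 pairs the first partner was the higher in every knockout library and the lower in both wild-type libraries. COX5A exceeded COX5B in both groups, at ratios of 4.20 ± 0.140 in the knockout and 2.72 ± 0.0474 in the wild type. Ratios within a library do not depend on the scaling factor. They may depend on the counting of reads with several matches, which was not tested.

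**Figure D3:**
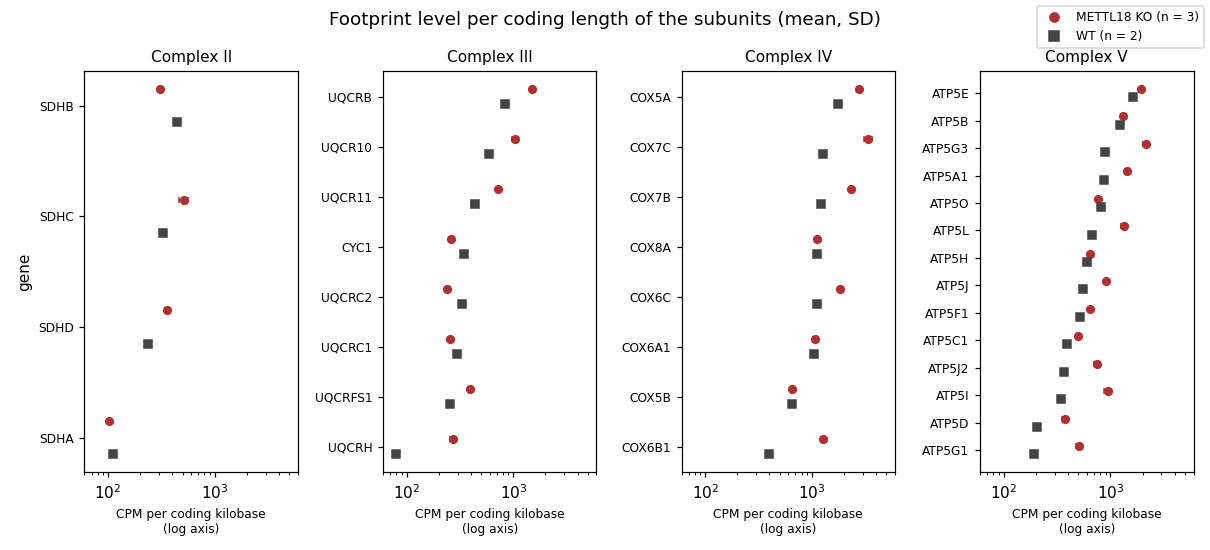
Mean CPM per coding kilobase (log axis, bars are ± 1 SD) of the tested subunits of each complex in METTL18 knockout (n = 3) and wild type (n = 2), ordered by the wild-type level. Knockout points lie to the right for most complex IV and V subunits, while SDHB, CYC1, UQCRC2 and UQCRC1 lie to the left; UQCRH (271 against 79.3) and COX6B1 (1262 against 393) are furthest apart.

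Short coding sequences went with the higher fold changes. The 14 tested chain genes under 300 coding bases had a median log2 fold change of 0.78, the 20 of 300 to under 600 bases 0.59, and the 22 of 600 or more bases -0.03. Over all genes tested the same classes had medians of 0.27 (208 genes), 0.22 (1143) and -0.01 (9933), a like order over a smaller range. Across the 56 chain genes, which share the same 5 libraries, log2 fold change and log2 coding length had a Pearson r of -0.53 and a Spearman rho of -0.56, against -0.13 and -0.17 over 11284 genes of the whole table. Within subunits and cytochrome c the r was -0.56 (35 genes) and within assembly factors -0.48 (19 genes). Exceptions included ATP5A1 (1659 bases, 0.70), SCO2 (798 bases, 0.95), ATP5SL (771 bases, 0.71) and UQCRFS1 (822 bases, 0.65), all long and higher. COX8A was short and did not pass (207 bases, -0.01). Level per length in the wild type had a weaker relation (r 0.26, rho 0.25 over 56). It was not kept within the classes, at r -0.11 for subunits and cytochrome c and 0.13 for assembly factors. The length classes were chosen after the values were seen.

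**Figure D4:**
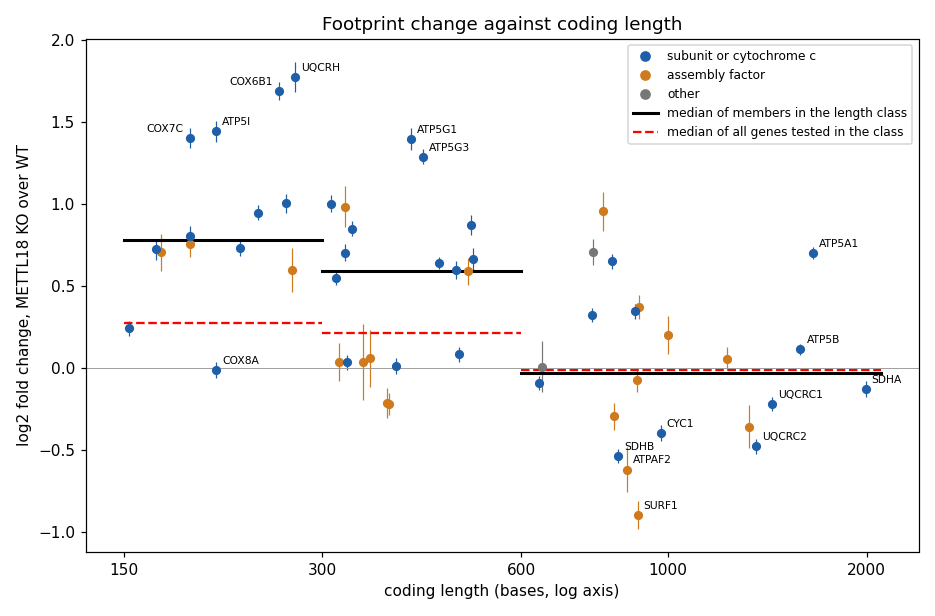
Log2 fold change (METTL18 knockout over wild type, bars are ± 1 SE) against coding length in bases (log axis) of the 56 tested genes, with the class medians of the chain genes (solid) and of all genes tested (dashed). Chain medians are 0.78, 0.59 and -0.03 from short to long, against 0.27, 0.22 and -0.01 for all genes.

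The chain genes were also grouped by their sharing of sequence with pseudogenes. The 31 tested chain genes with under 10% of 28-base stretches in a pseudogene transcript had 14 rises, 9 falls and a median of 0.06. The 17 with 10% to under 50% had 13 rises, 3 falls and a median of 0.70, and the 8 with 50% or more had 6 rises, 0 falls and a median of 0.57. Over all genes tested 37.8% rose and 36.6% fell, but sharing was not computed for them, so the classes have no whole-table share. The medians did not follow the order of the classes. Most assembly factors, SURF1 and ATPAF2 among them, lay in the class under 10%, so the classes also differ in role. COX6B1 (1.3%), ATP5I and ATP5D (0) rose with little or no shared sequence. Of UQCR11, SDHAF2 and SCO2 all such stretches lie also in another annotated gene's transcript (AC005943.1, AP003108.2 and a further gene entry named SCO2). The same holds for 67.6% in ATP5O, 76.6% in COX16 and 80.2% in COX15. Reads of such pairs may be split between them in ways the counts do not show, and the part of shared sequence in the changes was not tested.

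Genes that work on the same complexes but lie outside the symbol rule also held more rises than falls. Of 35 other assembly and accessory genes listed, 27 were measured, of which 19 rose, 5 fell and 3 did not pass, with a median of 0.67 (17 higher and 6 lower with total-count scaling). PET100, a complex IV assembly factor, rose by 1.56 on the log2 scale (SE 0.085), USMG5, a small ATP synthase subunit, by 1.52 (SE 0.0574), and SLIRP, the partner of LRPPRC, by 0.99 (SE 0.0461). LRPPRC, which stabilises mitochondrial mRNAs, fell (log2 fold change -0.58, SE 0.0376), as did BCS1L, which inserts the Rieske protein into complex III (-0.78, SE 0.0907), and TTC19, which acts on the Rieske protein afterwards (-0.71, SE 0.0737). BCS1L and TTC19 fell while the Rieske gene UQCRFS1 rose.

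Among 18 tested transcriptional regulators of respiratory genes, 14 rose and 3 fell, with a median of 0.37 (8 higher and 4 lower with total-count scaling). The coactivators PPARGC1B (log2 fold change 1.65, SE 0.132) and PPRC1 (1.37, SE 0.0611) and MYC (1.01, SE 0.0462) rose, and the ETS cofactors GABPB2 (-1.12, SE 0.178) and GABPB1 (-0.21, SE 0.0672) fell with EPAS1 (-0.81, SE 0.31). NRF1 itself stood at 0.35, GABPA at 0.33 and YY1 at 0.21, all called higher in the knockout with TMM, but at 0.08, 0.06 and -0.07 and not called with total-count scaling. Of 22 mitochondrial genes outside the respiratory chain, inner membrane carriers among them, 18 rose and 4 fell. Their median was 0.37 (11 higher and 5 lower with total-count scaling). The ADP/ATP carrier SLC25A6 (1.65, SE 0.0436), the matrix chaperonin genes HSPE1 (1.54, SE 0.05) and HSPD1 (0.95, SE 0.0343) rose, and the matrix protease LONP1 (-1.69, SE 0.0482), the outer membrane channel VDAC3 (-0.65, SE 0.0459) and the import motor gene TIMM44 (-0.56, SE 0.0528) fell. These 3 lists, like the chain genes, held more rises than falls on both scales.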

How the data were processed

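Ribosome footprints of 5 HAP1 libraries were measured, 3 METTL18 knockout and 2 wild type. Per the labels' protocols, RNase I digested lysates made with cycloheximide, gradient fractions gave the monosomes, a gel gave fragments 28 to 32 bases long, and adapters had 4 random bases. A label calls the molecule polyA RNA, unlike that protocol. Per the submitters' processing notes, Bowtie and hg38 were used. The counting tool, multi-mapping and duplicate reads are not described in the labels, so intervals cover counting error only. Raw counts were deposited by the authors as 1 table with 14084 transcript rows with gene symbols, 387 without any count. No member had several rows.

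From these counts, edgeR 4.0.16 in R 4.3.3 gave a robust quasi-likelihood fit with TMM factors of 0.927, 0.923 and 0.932 in the knockout and 1.12 and 1.12 in the wild type, filterByExpr (minimum count 10, minimum total 15) and group as the sole term, adjusted over all genes. Totals of 4887380 to 17629199 counts limit the precision. Counts were also simulated with the same dispersion for every gene and 50 genes changed at each fold, evenly up and down. With 11264 genes tested, calls covered 44% of the genes given a 1.25-fold change, 88% for 1.5-fold and 100% for 2-fold. Of the simulated calls, 4.6% were false. In the real data 74.4% of genes were called, a far larger part, so these figures may not hold for the real calls. GENCODE 29 gave coordinates and coding lengths of all 60 members, and RefSeq (GRCh38.p14) gave 46 promoters, matched by symbol or synonym with chromosome and strand. Alternatives were RLE and total-count scaling, DESeq2 1.42.0, other low-count filters, thinned knockout libraries, a block on the replicate number, and leaving out every library in turn. The text names every structural subunit found by the rule, the largest rises and falls of each complex, and up to 3 genes per direction of each other list. NRF1, GABPA and YY1 were named in addition after their values were seen. The members and lists were chosen with earlier results of these data known. One listed marker gene is not reported here.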

Additional observations from a re-analysis of the deposited data

How the results depend on the processing

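Of the 56 tested genes, 36 kept their direction and their side of the threshold under all 12 alternatives, and 42 did so under all but total-count scaling. Other than with that scaling, 32 to 34 chain genes rose and 8 to 12 fell. Total-count scaling gave 19 that fell, 7 of them in complex IV and 4 in complex V. Falls in complex II numbered 1 without a low-count filter and 1 to 3 with a library left out. Falls in complex V numbered 1 with DESeq2 or without a filter and 1 to 2 with a library left out.

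With 30 codons taken off each length, SDHC over SDHB was 0.800 in the wild type, SDHD over SDHB was 1.31 in the knockout and 0.596 in the wild type, and COX5A over COX5B was 4.03 in the knockout and 2.61 in the wild type.

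Signs turned mainly among genes that did not pass. With total-count scaling, log2 fold changes were -0.16 for ATP5B, -0.030 for ATP5E, -0.19 for ATP5H, -0.27 for ATP5S, -0.21 for COX15, -0.24 for COX16, -0.071 for COX18, -0.21 for COX20, -0.26 for COX5B, -0.24 for COX6A1 and -0.24 for SDHAF1, as all genes shifted by a like amount. With a mean CPM of at least 10 they were -0.053 for ATP5S, -0.0022 for COX15, -0.025 for COX16, -0.048 for COX5B and -0.025 for COX6A1. With thinned knockout libraries they were -0.051 for ATP5S, -0.0069 for COX15, -0.020 for COX16, -0.0083 for COX5B, -0.016 for COX6A1 and -0.15 for SDHAF1. ATP5S was at -0.0029 with RLE scaling, and COX8A at 0.011 without a low-count filter. With a library left out, ATP5S ranged between -0.065 and 0.082, COX15 between -0.0089 and 0.12, COX16 between -0.13 and 0.20, COX20 between -0.13 and 0.25, COX5B between -0.017 and 0.034, and SDHAF1 between -0.15 and 0.14. Other than total-count scaling, the cause was not tested.

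No pairing by replicate number was seen: deviations of same-numbered libraries from their group means correlated at 0.00853 and 0.0231, each over 11335 genes. The deviations of the 2 wild-type libraries mirror each other and hold counting noise, so these values cannot exclude a shared culture or batch. With the replicate number as a block, 33 chain genes rose and 12 fell, and 8476 of all genes were called, against 8431 without it. Under that block ATP5S was at -0.020, COX16 at -0.046, COX20 at -0.046 and SDHAF1 at -0.14, none of them past the threshold.

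Depth limits the genes at low levels most: of the tested genes, SDHAF1, COX20, ATP5S, ATPAF2, COX10 and COX19 averaged under 20 CPM in both groups. Groups of 3 and 2 libraries are too few for a check of single outlying libraries.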
